A study of Homo sapiens with 24 samples.

Results

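The Rab GTPases and the Rab11 family interacting proteins (RAB11FIP genes) were examined in H1299 cells that carried a vector or expressed a p53 isoform. The genes were taken by their symbols, as every named gene called RAB followed by a number and at most 1 letter, and every gene called RAB11FIP followed by a number. This gave 69 genes of 60563 named in the count table, 64 Rab genes and 5 RAB11FIP genes. After a filter on low counts 59 of them were tested. The 10 genes that did not pass it were RAB1C (a processed pseudogene), RAB3C, RAB7B, RAB17, RAB19, RAB25, RAB33A, RAB37, RAB42 and RAB44.

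Rab GTPases are small membrane switches. In the GTP-bound form each recruits its own effectors to a membrane, such as motors, tethers and sorting proteins, and so gives an endosome, Golgi or secretory carrier its identity and its route. RAB5 proteins act on early endosomes, RAB7A and the RAB9 proteins on late endosomes, RAB4 and RAB11 proteins in recycling back to the cell surface, and RAB1, RAB2 and RAB6 proteins between the endoplasmic reticulum and the Golgi. The RAB11FIP proteins bind RAB11 and link recycling endosomes to motors and tethers, a route by which integrins and growth factor receptors return to the surface of migrating tumour cells.

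H1299 is an established line from a non-small cell lung cancer that lacks p53. RNA was sequenced from vector control cells and from 5 lines that stably express an isoform from a plasmid, namely Δ133p53α1, Δ133p53α2 and Δ133p53α8 for the α isoform and Δ133p53β5 and Δ133p53β10 for the β isoform. Each line is 1 clone, so a difference between a line and the control belongs to that clone and cannot be told apart from clonal variation. The isoforms were compared through these few clones, so a difference between them cannot be told apart from clonal variation either. Control, Δ133p53α1, Δ133p53α2, Δ133p53α8 and Δ133p53β10 had 4 libraries each and Δ133p53β5 had 3. For 1 further Δ133p53β library the labels and the table's column name give different clones, and its values are given apart.

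The libraries held 21531599 to 25381731 counted reads. The sources do not say whether the libraries of a line came from separate cultures, so p-values measure the spread between these libraries. The epithelial keratin genes KRT8 (421 to 4363 CPM, counts scaled to library size) and KRT18 (450 to 3364 CPM) and the mesenchymal gene VIM (1742 to 5162 CPM) were high in all 24 libraries. The epithelial markers KRT19, EPCAM and CDH1 had at most 5 reads in any library, and the leukocyte genes PTPRC and CD3E had 0. Another leukocyte gene, CD68, was detected in all libraries at 0.46 to 2.36 CPM, with up to 45 reads. The glial genes MBP (6.31 to 47.3 CPM) and GFAP (1.23 to 6.41 CPM) were detected as well. The further mesenchymal gene CDH2 had 16.1 to 47.96 CPM, and FN1 had at most 20.02 CPM. The libraries fell into 2 sets of 12 by the sign of their trend with gene length, measured as summed exon length. The labels do not mention these sets. The set with longer genes higher, called the long-gene set here, held 3 control, 1 Δ133p53α1, 3 Δ133p53α2, 3 Δ133p53α8, 1 Δ133p53β5 and 1 Δ133p53β10 library. All other libraries formed the short-gene set. For each Rab or RAB11FIP gene called without the library set as a term, the difference between groups within each set is given beside the result. It is not given for partner genes or for genes called only with that term. The control had 1 short-gene library, so each short-gene difference from control rests on that library. Each long-gene difference from control in Δ133p53α1, Δ133p53β5 and Δ133p53β10 cells rests on 1 library of that line.

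Of the RAB11FIP genes, RAB11FIP3 was lower in the Δ133p53β lines, against the control and against the α lines. RAB11FIP4, a low gene, was also called lower in the Δ133p53β lines against the control, and both calls were lost without control replicate 3. RAB15 followed the pattern of RAB11FIP3. In the Δ133p53α lines both genes had negative log2 fold changes that did not pass the test. RAB38 was close to absent in all Δ133p53α lines. In the Δ133p53β lines it was low but present, and it was called lower against the control in Δ133p53β5 cells too. The Δ133p53α and Δ133p53β libraries overlapped for this gene. RAB9A was higher in 4 of 5 lines and RAB9B in 3 of 5. RAB11A and RAB11B, the GTPases that the RAB11FIP proteins bind, did not pass the test in any line.

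The promoters of RAB11FIP3, RAB9A and RAB9B are shown because each was called in 3 or 4 comparisons and RAB9A and RAB9B are paralogs. RAB38, RAB15 and RAB20, called in 3 to 5 comparisons, are not shown. They are RefSeq sequences of build GRCh38.p14, from 250 bases before to 50 bases after an annotated start, read 5′ to 3′ on the gene's strand. Capitals mark GC boxes, GGGCGG or its reverse complement CCGCCC, the site bound by Sp1 type factors. RAB11FIP3 has 2 annotated starts.
RAB11FIP3 upstream start, chr16:425399-425698, plus strand: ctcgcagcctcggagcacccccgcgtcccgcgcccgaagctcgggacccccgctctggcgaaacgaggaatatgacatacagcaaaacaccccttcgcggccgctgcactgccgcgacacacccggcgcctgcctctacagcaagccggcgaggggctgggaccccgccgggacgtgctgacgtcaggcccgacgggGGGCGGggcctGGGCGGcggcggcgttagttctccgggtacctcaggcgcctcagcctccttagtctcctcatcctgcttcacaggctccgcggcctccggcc
RAB11FIP3 downstream start, chr16:474674-474973, plus strand: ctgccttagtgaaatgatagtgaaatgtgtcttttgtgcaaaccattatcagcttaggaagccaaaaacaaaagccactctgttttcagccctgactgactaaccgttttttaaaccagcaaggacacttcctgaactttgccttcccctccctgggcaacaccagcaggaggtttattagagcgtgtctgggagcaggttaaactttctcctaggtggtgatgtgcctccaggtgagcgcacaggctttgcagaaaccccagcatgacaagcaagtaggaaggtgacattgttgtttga
RAB9A, chrX:13688878-13689177, plus strand: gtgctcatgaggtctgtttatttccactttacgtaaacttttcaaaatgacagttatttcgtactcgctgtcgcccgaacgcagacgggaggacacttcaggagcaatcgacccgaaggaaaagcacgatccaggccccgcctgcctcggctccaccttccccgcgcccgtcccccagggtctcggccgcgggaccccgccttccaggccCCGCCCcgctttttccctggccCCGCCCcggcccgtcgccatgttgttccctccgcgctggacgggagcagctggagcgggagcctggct
RAB9B, chrX:103832208-103832507, minus strand: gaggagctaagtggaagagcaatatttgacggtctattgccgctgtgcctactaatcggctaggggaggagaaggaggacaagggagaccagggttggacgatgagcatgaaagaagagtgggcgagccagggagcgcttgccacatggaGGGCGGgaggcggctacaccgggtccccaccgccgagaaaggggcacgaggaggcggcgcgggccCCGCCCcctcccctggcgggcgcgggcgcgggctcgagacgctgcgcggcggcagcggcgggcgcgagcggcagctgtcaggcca

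The upstream RAB11FIP3 promoter was rich in G and C (71.7%) and held 36 CpG dinucleotides and 2 GC boxes. The downstream one was 47.0% G and C, with 3 CpG and 0 GC boxes. Counts per gene do not separate the transcripts of these starts. The RAB9A promoter (64.3% G and C, 29 CpG) and the RAB9B promoter (69.0%, 31 CpG) held 2 GC boxes each. Over all 35116 RefSeq promoters of this length the medians were 58.7% G and C and 14 CpG. The GC box was found on either strand in 45.0% of all promoters and in 55 of 75 promoters (73.3%) of the 53 Rab and RAB11FIP genes with an entry. None of the 4 promoters shown held TATAAA (11.5% of all promoters), CCAAT (34.6%), the E-box CACGTG (7.26%), the M-box TCATGTG (2.92%) or a p53 half-site (6.63%), each sought on both strands. These matches describe the letters in the window only.

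Per exon length, RAB1B had the highest level in control cells, at 91.7 ± 22.9 RPKM (CPM per kilobase of exon; SD, n = 4). It was followed by RAB32 (45.5 ± 11.7 RPKM), RAB7A (43.9 ± 6.39), RAB10 (41.5 ± 3.96), RAB11B (38.7 ± 8.81), RAB1A (37.3 ± 3.15) and RAB34 (35.5 ± 9.75). The ranges of mean and SD of these last 6 overlapped, so their order was not resolved. RAB11A was 11th of the 59 genes (22.9 ± 4.10 RPKM), RAB11FIP3 22nd (7.11 RPKM), RAB15 24th (6.40 RPKM) and RAB9A 25th (5.32 RPKM). RAB20 (1.32 RPKM), RAB38 (0.64 RPKM), RAB9B (0.18 RPKM) and RAB11FIP4 (0.08 RPKM) were among the low genes.

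**Figure D1:**
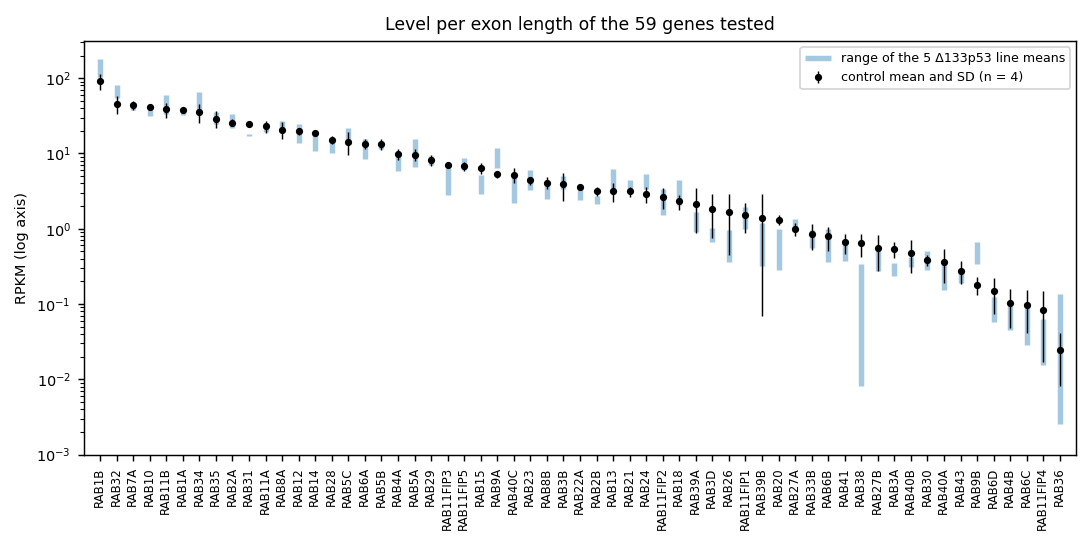
Level per exon length (RPKM, log axis) of the 59 genes tested, in order of the control mean. Points and bars are the mean and SD of 4 control libraries, and blue bars span the means of the 5 isoform lines. RAB1B stands highest at 91.7 RPKM, and the blue bar of RAB38 reaches lowest against its control level.

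Each line was compared with the control by edgeR's quasi-likelihood test, with p-values adjusted by Benjamini and Hochberg's method over all 18295 genes tested, to ask which Rab transcripts differ in cells with each isoform. The 5 comparisons share the same 4 control libraries. Genes with an adjusted p below 0.05 are referred to as called. In Δ133p53α1 cells 0 of the 59 genes were called higher and 3 lower, against 2.11% and 2.77% of all genes. In Δ133p53α2 cells 1 was called higher and 2 lower, against 2.2% and 3.11% of all genes. In Δ133p53α8 cells 2 were called higher and 1 lower, against 1.93% and 2.55% of all genes. These shares lie near those of all genes.

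In Δ133p53β5 cells 3 of the 59 genes were called higher and 5 lower, against 3.18% and 4.82% of all genes. In Δ133p53β10 cells 2 were called higher and 7 lower, against 4.7% and 5.12% of all genes. The mean of the Δ133p53β lines was also compared with the mean of the Δ133p53α lines, and 2 genes were called higher and 3 lower, against 2.17% and 2.56% of all genes. In all, 14 genes were called in at least 1 comparison. The like share of all genes was not computed. The study's own rule also sets a minimum fold. When a log2 fold change of at least 1.5 was required as well, the numbers of Rab and RAB11FIP genes called were 2, 1, 2, 4 and 3 in Δ133p53α1, Δ133p53α2, Δ133p53α8, Δ133p53β5 and Δ133p53β10 cells and 1 between the isoforms. The shares of all genes were 2.6%, 2.8%, 2.5%, 4.21%, 4.69% and 1.4%. When a fit held only the groups compared, 19 of 30 calls remained, and those lost included RAB9A in Δ133p53α2 (adjusted p = 0.0694) and Δ133p53β10 cells (adjusted p = 0.128), RAB9B (adjusted p = 0.106) and RAB20 (adjusted p = 0.0627) in Δ133p53β10 cells and RAB4A in Δ133p53α2 cells (adjusted p = 0.128).

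The median log2 fold change of the 59 genes was -0.35 in Δ133p53α1 cells, where 45 of them had a value below 0, against -0.05 over all genes. In the other 4 lines it lay between -0.15 and -0.04, with 32 to 37 genes below 0, and all genes had medians between -0.02 and 0.03. Of the 4 Δ133p53α1 libraries 3 were in the short-gene set, and of the 4 control libraries 3 were in the long-gene set. In a fit with the library set as a term, the median of the 59 genes in Δ133p53α1 cells was -0.19, with 38 below 0, against -0.03 over all genes. In the fit without that term, the median between the isoforms was -0.01 for the 59 genes and -0.01 for all genes. With the term these medians were 0.05 and 0.01.

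**Figure D2:**
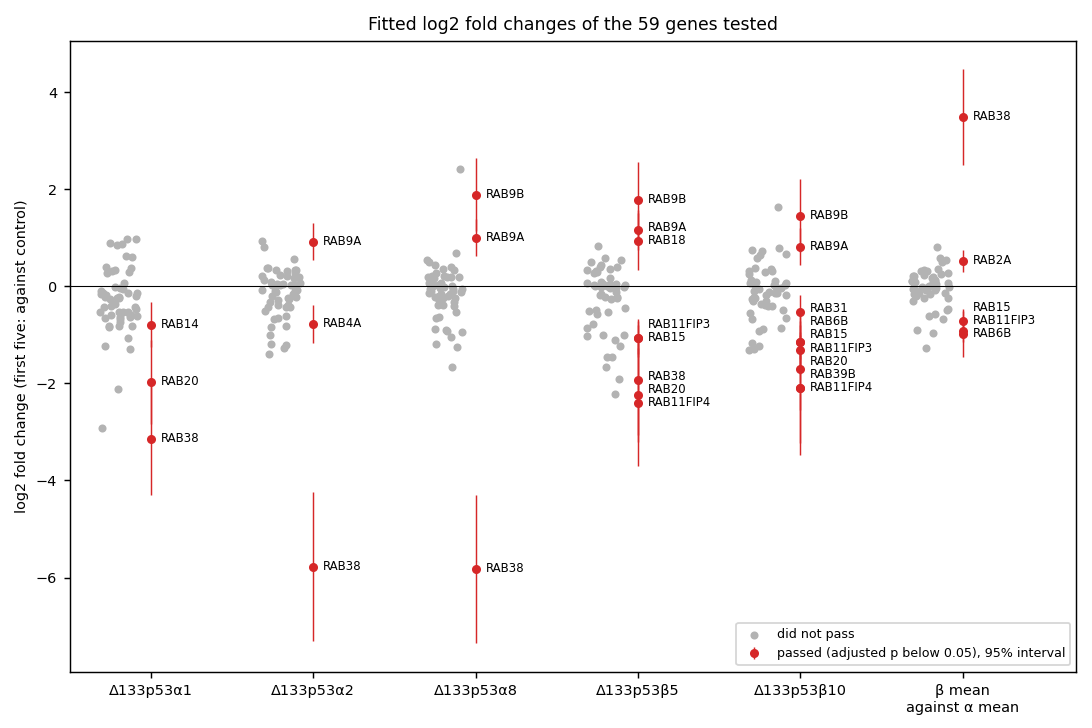
Fitted log2 fold changes of the 59 genes in 6 comparisons, each line against control and the Δ133p53β mean against the Δ133p53α mean. Red points with 95% intervals passed the test and are named; grey points did not. RAB38 lies farthest below 0 in Δ133p53α2 (-5.78) and Δ133p53α8 (-5.82) cells, and RAB9A and RAB9B lie above 0 in Δ133p53α8, Δ133p53β5 and Δ133p53β10 cells.

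Among the Rab11 effectors, RAB11FIP3 encodes a protein that binds RAB11 and ARF6 and carries recycling endosomes to the cleavage furrow and along microtubules. The gene lies at chr16:425649-523011 on the plus strand (GENCODE 44, GRCh38). Its levels in control cells were 43.0, 50.4, 40.8 and 44.5 CPM. In Δ133p53β5 cells they were 19.99, 24.1 and 20.3 CPM, and in Δ133p53β10 cells 17.9, 18.3, 18.4 and 17.0 CPM. All 7 Δ133p53β libraries lay below all control libraries. In Δ133p53α1 cells the levels were 36.4, 41.4, 40.9 and 42.1 CPM, in Δ133p53α2 cells 35.6, 43.4, 34.5 and 34.4 CPM, and in Δ133p53α8 cells 40.1, 40.2, 30.2 and 28.8 CPM. In bulk RNA, fewer cells with a transcript and less of it per cell cannot be told apart. The Δ133p53α1 and Δ133p53α2 libraries overlapped with the control, while all Δ133p53α8 libraries lay below it. The 12 Δ133p53α libraries did not overlap with the Δ133p53β libraries. RAB11FIP3 fell by 1.06 on the log2 scale in Δ133p53β5 cells (SE 0.17, adjusted p = 0.000305) and by 1.32 in Δ133p53β10 cells (SE 0.15, adjusted p = 6.92e-06). It was lower in the Δ133p53β than in the Δ133p53α lines by a log2 fold change of -0.93 (SE 0.10, adjusted p = 5.96e-06). The log2 fold changes in the Δ133p53α lines were -0.15, -0.27 and -0.36, with adjusted p of 0.489, 0.399 and 0.226.

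The differences in RAB11FIP3 were of like size within the library sets. For Δ133p53β5 against control they were -1.17 in the long-gene set and -0.96 in the short-gene set in mean log2 CPM, and for Δ133p53β10 -1.33 and -1.26. Between the isoforms they were -0.90 and -0.97. The library whose clone is unclear had 26.1 CPM, below all control and Δ133p53α libraries.

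RAB11FIP4, the close relative of RAB11FIP3, was a low gene. It had 0.46, 1.19, 2.73 and 0.72 CPM in control cells, 0.26, 0.32 and 0.14 CPM in Δ133p53β5 cells and 0.37, 0.34, 0.26 and 0.21 CPM in Δ133p53β10 cells. The Δ133p53β libraries lay below the controls, which themselves spread from 0.46 to 2.73 CPM. RAB11FIP4 fell by 2.40 (SE 0.63, adjusted p = 0.0193) and 2.09 (SE 0.55, adjusted p = 0.0185) on the log2 scale. Control replicate 3 held the highest value, and both calls depended on it. Without it the log2 fold changes were -1.71 (adjusted p = 0.0971) and -1.40 (adjusted p = 0.124), and calls were also lost without any 1 of the Δ133p53β5 libraries or without Δ133p53β10 replicate 3 or 4. In Δ133p53α8 cells the log2 fold change was -1.67 (adjusted p = 0.0845). Within the long-gene and the short-gene set the differences from control in mean log2 CPM were -2.05 and -0.85 in Δ133p53β5 cells and -1.63 and -0.63 in Δ133p53β10 cells. In the fit with the library set as a term RAB11FIP4 was called lower in Δ133p53α8 cells too (-1.62, adjusted p = 0.0426), beside Δ133p53β5 (-2.18, adjusted p = 0.0192) and Δ133p53β10 cells (-1.85, adjusted p = 0.0318).

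The other 3 effectors did not pass the test in any comparison. RAB11FIP1, also known as Rab coupling protein, which recycles integrins, had 14.8 ± 6.27 CPM in control cells (SD, n = 4) and means of 9.69 to 18.7 CPM in the 5 lines. RAB11FIP2, which binds the motor MYO5B, had 17.3 ± 5.48 CPM in control cells and means of 9.82 to 22.0 CPM. It was higher in the long-gene set in all 6 lines, by 1.28 in mean log2 CPM. RAB11FIP5 had 47.8 ± 6.76 CPM in control cells and means of 42.8 to 62.3 CPM.

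**Figure D3:**
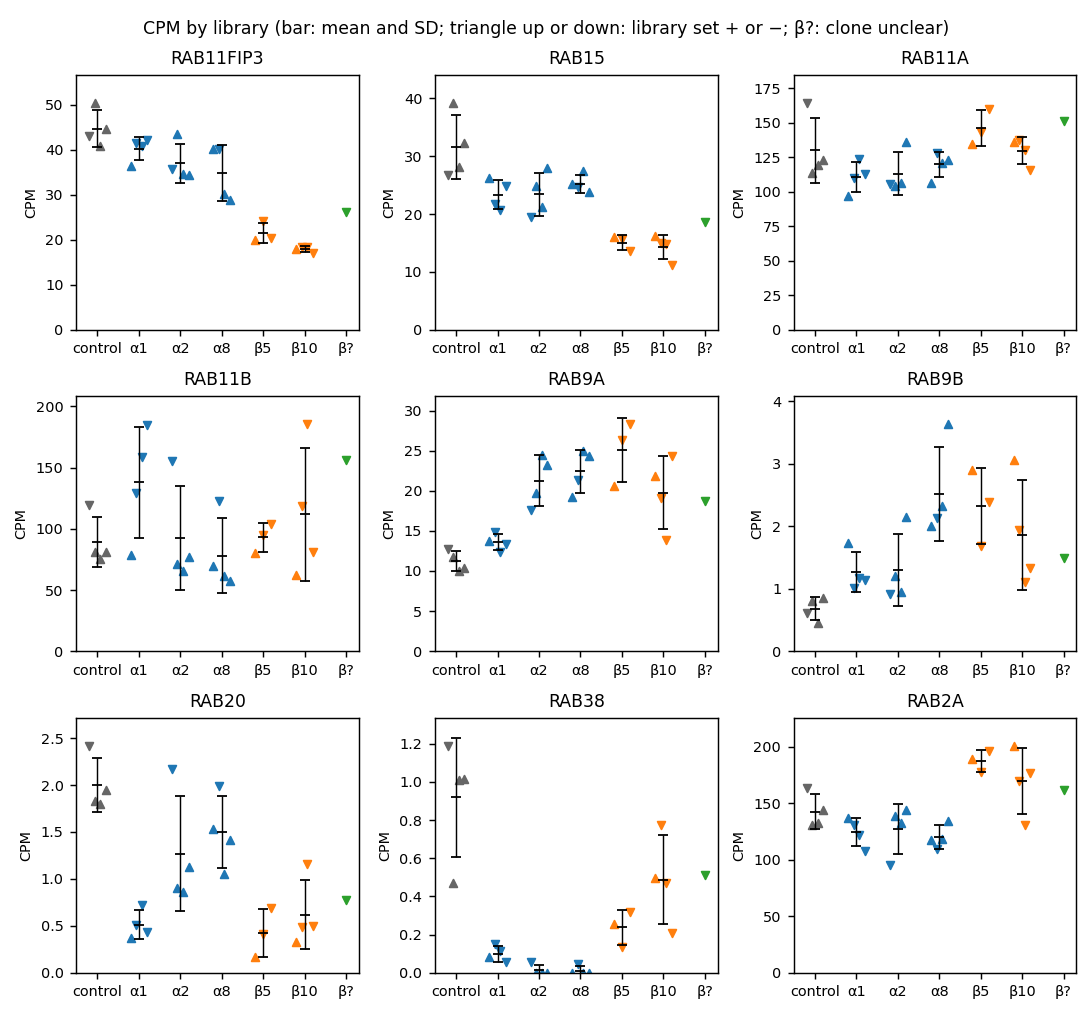
CPM by library for 9 genes, with the mean and SD of each group of 3 or 4 libraries. Upward and downward triangles are libraries of the long-gene and the short-gene set, and β? is the library whose clone is unclear. All Δ133p53β libraries of RAB11FIP3 and RAB15 lie below all other groups, while RAB11A and RAB11B overlap between control and isoform lines.

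RAB11A, the ubiquitous recycling endosome GTPase, had 164, 113, 119 and 123 CPM in control cells. The isoform lines had means of 111 to 146 CPM, and their log2 fold changes ranged from -0.23 to 0.17 with 95% intervals that stayed between -0.54 and 0.51. RAB11B, its paralog, had 89.3 ± 20.3 CPM in control cells and log2 fold changes from -0.20 to 0.63. Its 95% intervals reached from -0.91 to 1.35, so differences within that range could not be told from none. RAB11B was lower in the long-gene set by 0.83 in mean log2 CPM, in all 6 lines. RAB25, the epithelial member of the RAB11 group, had 2 reads in all 24 libraries.

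RAB15, a GTPase of early sorting and recycling endosomes, was the other gene called lower in the β than in the α lines with no overlap. It had 26.7, 39.2, 28.2 and 32.3 CPM in control cells, 16.1, 15.6 and 13.6 CPM in Δ133p53β5 cells and 16.2, 15.1, 14.8 and 11.3 CPM in Δ133p53β10 cells. The 12 Δ133p53α libraries held 19.5 to 27.9 CPM, above all Δ133p53β libraries. The share of all genes with no overlap between the isoforms was not computed. All Δ133p53α1 libraries lay below the control, while Δ133p53α2 and Δ133p53α8 libraries reached its range. RAB15 fell by 1.07 on the log2 scale in Δ133p53β5 cells (SE 0.19, adjusted p = 0.000929) and by 1.14 in Δ133p53β10 cells (SE 0.17, adjusted p = 0.000144), and the isoforms differed by -0.71 (SE 0.12, adjusted p = 0.000704). In the Δ133p53α lines its log2 fold changes were -0.44, -0.43 and -0.32 and did not pass the test. Within the long-gene and the short-gene set the isoforms differed by -0.65 each in mean log2 CPM, and the differences of the Δ133p53β lines from control were between -1.03 and -0.87. The library whose clone is unclear had 18.6 CPM.

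Of the other recycling and exocytic GTPases, 2 were called in a single Δ133p53α line. RAB4A, which acts in fast recycling from early endosomes, fell by 0.77 on the log2 scale in Δ133p53α2 cells (SE 0.19, adjusted p = 0.0161), from 25.6 to 39.2 CPM in control libraries to 18.5 to 20.9 CPM. The call was lost without Δ133p53α2 replicate 3 (adjusted p = 0.0502). The difference was -0.66 in the long-gene set and -1.05 in the short-gene set. Exons of an antisense gene, RAB4A-AS1, overlap 5.47% of its exon bases, and the strand setting of the counting is not given in the sources used here. Such overlaps were not confined to RAB4A. Among others, exons of another gene overlapped RAB9B (7.21%, same strand), RAB6B (6.29%), RAB35 (14.8%), RAB11FIP1 (24.8%) and RAB5C (28.8%, same strand). RAB14, which acts between the Golgi and endosomes, fell by 0.79 in Δ133p53α1 cells (SE 0.22, adjusted p = 0.0435), from 79.5 to 96.6 CPM down to 44.05 to 62.0 CPM. This call held in only 7 of 23 fits that left out 1 library, with an adjusted p of up to 0.141. In the short-gene set the difference in RAB14 was -0.92 and in the long-gene set -0.49. RAB35, which recycles cargo from the surface, and RAB4B, with under 1 CPM in every library, were not called.

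On early endosomes, RAB20 was lower in 3 of 5 lines. The protein is known from phagosome maturation and from cells under low oxygen. In control cells RAB20 had 2.42, 1.83, 1.80 and 1.94 CPM. It had 0.37, 0.51, 0.73 and 0.43 CPM in Δ133p53α1 cells, 0.17, 0.41 and 0.69 CPM in Δ133p53β5 cells and 0.33, 0.48, 1.16 and 0.50 CPM in Δ133p53β10 cells. All these libraries lay below the control. RAB20 fell by 1.97 (SE 0.42, adjusted p = 0.00673), 2.23 (SE 0.47, adjusted p = 0.00407) and 1.70 (SE 0.41, adjusted p = 0.00983) on the log2 scale. In Δ133p53α2 and Δ133p53α8 cells its log2 fold changes were -0.67 and -0.41, with adjusted p of 0.441 and 0.738. Within the sets the 3 called differences were between -2.90 and -1.74.

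RAB31, a relative of RAB5 that acts between the Golgi and endosomes, had near equal log2 fold changes in all 5 lines, between -0.53 and -0.43. It was called in Δ133p53β10 cells, where it fell by 0.52 (SE 0.16, adjusted p = 0.0424), from 115 to 145 CPM down to 81.8 to 108 CPM. The adjusted p in the other lines ranged from 0.0591 to 0.15. The call in Δ133p53β10 cells held in 13 of 23 fits that left out 1 library, with an adjusted p of up to 0.116. There the difference was -0.30 in the long-gene set and -0.64 in the short-gene set. With the library set as a term RAB31 was called lower in Δ133p53α8 (-0.52, adjusted p = 0.022), Δ133p53β5 (-0.47, adjusted p = 0.0475) and Δ133p53β10 cells (-0.46, adjusted p = 0.0431). RAB5A, RAB5B and RAB5C, the core early endosome GTPases, were not called in any comparison of the fit without that term. With it RAB5A was called higher in Δ133p53β5 cells (0.92, adjusted p = 0.0101). RAB5A was higher (by 0.88 in mean log2 CPM) and RAB5C lower (by 0.96) in the long-gene set in all 6 lines.

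On late endosomes and related lysosomal organelles, RAB38 had the lowest levels in the Δ133p53α lines. RAB38 directs enzymes to melanosomes and lung lamellar bodies. It had 31, 11, 27 and 24 reads in the control libraries. It had 2, 3, 2 and 1 reads in Δ133p53α1, 1, 0, 0 and 0 in Δ133p53α2 and 0, 1, 0 and 0 in Δ133p53α8 libraries. The Δ133p53β5 libraries had 6, 3 and 7 reads and the Δ133p53β10 libraries 12, 16, 9 and 5. No Δ133p53α library reached the control range. Scaled to library size, 3 Δ133p53β10 libraries (0.47 to 0.77 CPM) lay within the control range of 0.47 to 1.19 CPM, and the lowest Δ133p53β5 library (0.14 CPM) lay below the highest Δ133p53α library (0.15 CPM).

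Pooled over libraries and scaled to their sizes, RAB38 was 9.33-fold lower in Δ133p53α1 than in control cells (95% exact interval of the counts 4.54 to 22.2), 83.5-fold lower in Δ133p53α2 (14.6 to 3335) and 86.3-fold lower in Δ133p53α8 cells (15.1 to 3443). These intervals cover counting error only. The adjusted p were 0.00154, 3.09e-05 and 2.99e-05. In Δ133p53β5 cells RAB38 was 3.91-fold lower (2.28 to 7.12, adjusted p = 0.0322). That call was lost without any 1 of the 3 Δ133p53β5 libraries or control replicate 1, 3 or 4, with an adjusted p of up to 0.158. In Δ133p53β10 cells it was 1.95-fold lower (1.34 to 2.87) with an adjusted p of 0.201. Between the isoforms RAB38 was 9.83-fold higher in the Δ133p53β libraries (4.98 to 21.6, adjusted p = 6.79e-05). The lowest Δ133p53β library and the highest Δ133p53α library had 3 reads each, and the groups overlapped there. Within the sets the differences from control in mean log2 CPM were between -3.30 and -2.35 in the Δ133p53α lines, and -1.34 and -2.07 in Δ133p53β5 cells. Between the isoforms they were 2.02 in the long-gene and 1.36 in the short-gene set.

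RAB9A, which acts in transport from late endosomes to the trans-Golgi network, was higher in 4 of 5 lines. It had 12.7, 11.7, 10.0 and 10.4 CPM in control cells and 13.7, 14.8, 12.4 and 13.4 CPM in Δ133p53α1 cells. It had 17.6, 19.7, 24.5 and 23.2 CPM in Δ133p53α2 cells and 19.2, 21.3, 24.97 and 24.3 CPM in Δ133p53α8 cells. It had 20.6, 26.4 and 28.3 CPM in Δ133p53β5 cells and 21.9, 19.1, 13.8 and 24.3 CPM in Δ133p53β10 cells. The 4 lines other than Δ133p53α1 did not overlap with the control.

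The log2 fold changes of RAB9A were 0.92 (SE 0.18, adjusted p = 0.00311) in Δ133p53α2, 1.00 (SE 0.18, adjusted p = 0.00172) in Δ133p53α8, 1.16 (SE 0.19, adjusted p = 0.000633) in Δ133p53β5 and 0.82 (SE 0.18, adjusted p = 0.00615) in Δ133p53β10 cells. In Δ133p53α1 cells it was 0.27, with an adjusted p of 0.317. The 4 calls held in all 23 fits that left out 1 library. Within the long-gene and the short-gene set RAB9A differed from control by 1.06 and 0.46 in Δ133p53α2 cells and by 1.08 and 0.74 in Δ133p53α8 cells. In the β lines these differences were 0.94 and 1.10 (Δ133p53β5) and 1.03 and 0.54 (Δ133p53β10). Between the isoforms the log2 fold change was 0.26 (95% interval 0.00 to 0.51, adjusted p = 0.291).

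RAB9B, the paralog of RAB9A on the same chromosome, had 0.61, 0.81, 0.45 and 0.84 CPM in control cells. It had 2.00, 2.13, 2.32 and 3.63 CPM in Δ133p53α8, 2.90, 1.68 and 2.38 CPM in Δ133p53β5 and 3.07, 1.94, 1.10 and 1.33 CPM in Δ133p53β10 cells. All these libraries lay above the control. The log2 fold changes were 1.89 (SE 0.36, adjusted p = 0.00265), 1.77 (SE 0.38, adjusted p = 0.00515) and 1.45 (SE 0.36, adjusted p = 0.013). Without control replicate 3 the call in Δ133p53β10 cells was lost (adjusted p = 0.0543). In Δ133p53α1 and Δ133p53α2 cells they were 0.90 and 0.94, with adjusted p of 0.138 and 0.168. With the library set as a term RAB9B was called higher in Δ133p53α1 cells too (1.16, adjusted p = 0.0319). RAB9B was higher in the long-gene set in all 6 lines, by 0.52 in mean log2 CPM, and within the sets the 3 called differences were between 1.10 and 2.04. RAB7A, the main late endosome GTPase, had log2 fold changes between -0.23 and 0.03 in the lines.

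In the Golgi and secretory pathway, RAB2A, which acts between the endoplasmic reticulum and the Golgi and in fusion with lysosomes, was higher in the β than in the α lines. It had 189, 177 and 196 CPM in Δ133p53β5 and 201, 170, 131 and 177 CPM in Δ133p53β10 cells. The 12 Δ133p53α libraries ranged from 95.1 to 144 CPM, and overlapped with 1 Δ133p53β10 library. The log2 fold change between the isoforms was 0.52 (SE 0.11, adjusted p = 0.00506), and the differences within the long-gene and the short-gene set were 0.55 and 0.67. The control, with 131 to 164 CPM, lay between, and against it no line passed the test (log2 fold changes -0.25 to 0.39).

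RAB6B, the Golgi GTPase known from neurons, was lower in the β lines. It had 4.22, 4.59, 7.15 and 3.17 CPM in control cells, 1.96, 2.41 and 2.24 CPM in Δ133p53β5 cells and 2.45, 2.52, 2.94 and 0.79 CPM in Δ133p53β10 cells. The Δ133p53α libraries had 2.64 to 6.86 CPM and overlapped with the Δ133p53β range. RAB6B fell by 1.14 on the log2 scale in Δ133p53β10 cells (SE 0.32, adjusted p = 0.0281). In Δ133p53β5 cells the log2 fold change was -1.11 with an adjusted p of 0.0556. Between the isoforms it was -0.98 (SE 0.22, adjusted p = 0.011). The call in Δ133p53β10 cells was lost without control replicate 2 or 3 (adjusted p of up to 0.125), and that between the isoforms held in all 23 fits. Within the long-gene and the short-gene set the differences were -0.92 and -1.18 in Δ133p53β10 cells and -0.91 and -1.03 between the isoforms.

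RAB18, which acts at the endoplasmic reticulum and lipid droplets, was called higher in Δ133p53β5 cells (log2 fold change 0.93, SE 0.28, adjusted p = 0.0443), with 53.4 to 71.2 CPM against 23.7 to 42.1 CPM in control libraries. The call held in 8 of 23 fits without 1 library, with an adjusted p of up to 0.148. The difference was 1.15 in the long-gene and 0.81 in the short-gene set. RAB39B, known from neurons and autophagy, was called lower in Δ133p53β10 cells (log2 fold change -2.09, SE 0.66, adjusted p = 0.0489). Its control levels were 1.69, 2.47, 12.3 and 2.32 CPM, and without control replicate 3 the log2 fold change was -0.97 (adjusted p = 0.343). The difference was -1.91 in the long-gene and -0.59 in the short-gene set. RAB1A, RAB1B and RAB6A were not called. RAB6A, RAB6C and RAB6D are near-identical copies, and the counting could have split their reads.

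None of the 6 tested regulated secretion genes (RAB3A, RAB3B, RAB3D, RAB26, RAB27A and RAB27B), the 3 RAB40 genes or the 2 genes linked to cilia (RAB23 and RAB28) were called. A fit with the library set as a term changed this. With it RAB3D, a GTPase of secretory granules, was called lower in the 5 lines, with log2 fold changes from -1.94 to -1.21 and adjusted p from 0.00205 to 0.028. RAB3A was called lower in Δ133p53α8 (-1.25, adjusted p = 0.0478) and Δ133p53β10 cells (-1.43, adjusted p = 0.0259), and RAB26 in Δ133p53β5 (-2.95, adjusted p = 0.00507) and Δ133p53β10 cells (-2.18, adjusted p = 0.0191). RAB3B moved the other way and was called higher in Δ133p53β10 cells (0.65, adjusted p = 0.0281) and in the β against the α lines (0.42, adjusted p = 0.0334). RAB40C, a Rab that carries a SOCS box and joins ubiquitin ligases, was called lower in Δ133p53α8, Δ133p53β5 and Δ133p53β10 cells (-0.90, -1.59 and -1.37) and in the β against the α lines (-0.83, adjusted p = 0.0006). RAB18 was then called higher in Δ133p53β10 cells (0.84, adjusted p = 0.00769) and in the β than in the α lines as well (0.75, adjusted p = 0.00098), and RAB20 lower in the β than in the α lines (-1.22, adjusted p = 0.00123). Further calls with the term were RAB6B in Δ133p53β5 (-1.10, adjusted p = 0.0347), RAB32 (0.53, adjusted p = 0.0267) and RAB21 (0.66, adjusted p = 0.0437) in Δ133p53β5 and RAB36 in Δ133p53α8 cells (2.34, adjusted p = 0.0336). With this term 5, 4, 9, 16, 14 and 9 genes were called in the 6 comparisons, in place of 3, 3, 3, 8, 9 and 5, and 30 of the 31 earlier calls remained, all but RAB39B (-1.86, adjusted p = 0.0797). The shares of all genes rose as well, from 4.88%, 5.31%, 4.48%, 7.99%, 9.82% and 4.73% to 6.49%, 12.2%, 10.4%, 17.5%, 13.7% and 11.5%.

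In 29 of the 59 genes (49.2%) the long-gene set differed from the short-gene set in the same direction in all 6 lines, against 57.9% of all genes tested. The median size of that difference was 0.46 in log2 CPM, against 0.57. RAB39A (1.60), RAB6C (1.49), RAB6D (1.49) and RAB11FIP2 (1.28) were highest in the long-gene set, and RAB26 (-1.45), RAB34 (-1.02), RAB3D (-1.001) and RAB5C (-0.96) lowest. The sets' part in the results was not tested beyond the values given.

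**Figure D4:**
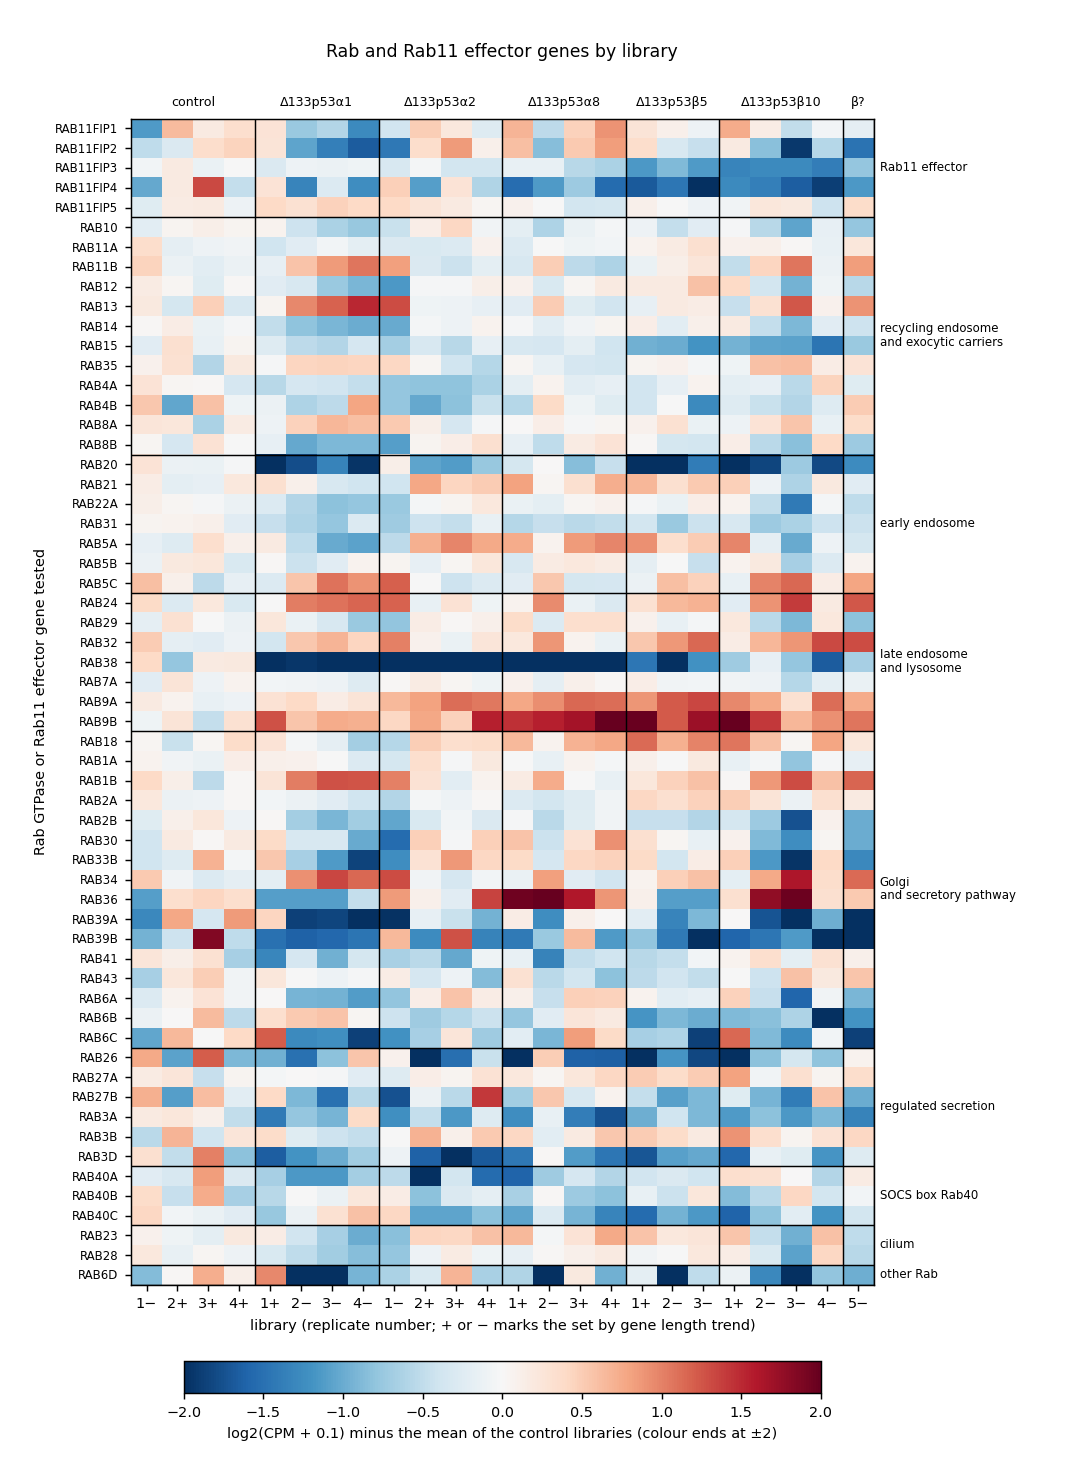
Map of the 59 genes (rows, by role) in 24 libraries (columns), as log2(CPM + 0.1) minus the control mean, with the colour scale ending at 2 in either direction. Plus and minus signs mark libraries of the long-gene and short-gene set, and β? the library whose clone is unclear. RAB38 is dark blue in the 12 Δ133p53α libraries, RAB11FIP3 and RAB15 are blue in the Δ133p53β libraries, and RAB34, RAB13 and RAB1B are red in many short-gene libraries.

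The partners of Rab GTPases were examined as lists. Among 9 motors, exchange factors and other partners of RAB11, MYO5B was higher in all 5 lines. MYO5B encodes myosin Vb, the motor that RAB11 and RAB11FIP2 recruit to recycling endosomes. It had 8.58, 11.9, 6.13 and 11.7 CPM in control cells. It had 23.2, 23.4, 17.0 and 15.3 CPM in Δ133p53α1, 15.6, 42.1, 22.1 and 32.2 CPM in Δ133p53α2 and 41.0, 23.7, 27.5 and 32.2 CPM in Δ133p53α8 cells. It had 34.7, 23.1 and 31.7 CPM in Δ133p53β5 and 26.4, 18.4, 18.7 and 17.1 CPM in Δ133p53β10 cells. All 19 isoform libraries lay above all 4 controls. The log2 fold changes were 1.04 (SE 0.29, adjusted p = 0.0373), 1.55 (SE 0.29, adjusted p = 0.00168), 1.70 (SE 0.29, adjusted p = 0.000859), 1.64 (SE 0.30, adjusted p = 0.00154) and 1.075 (SE 0.29, adjusted p = 0.0196). The call in Δ133p53α1 cells held in 16 of 23 fits without 1 library (adjusted p of up to 0.135). That in Δ133p53β10 cells was lost without control replicate 1 or 3 (adjusted p of up to 0.0788), and the others held in all 23 fits. In the same list ZFYVE27 (log2 fold change 0.70, adjusted p = 0.0256) and SH3BP5 (-1.24, adjusted p = 0.0368) were called in Δ133p53α1 cells, each in 17 or 18 of 23 such fits.

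Of the 28 tested genes with a TBC domain, which as a rule end Rab signalling by GTP hydrolysis, TBC1D16, reported to act on RAB4A, was lower in all 5 lines. It had 15.8, 30.7, 25.6 and 22.2 CPM in control cells, and the isoform lines had 6.46 to 17.8 CPM. Only Δ133p53α1 replicate 1 reached the control range. The log2 fold changes were -0.88, -1.57, -0.88, -1.10 and -1.29 in Δ133p53α1, Δ133p53α2, Δ133p53α8, Δ133p53β5 and Δ133p53β10 cells, with adjusted p from 0.000134 to 0.0262. Calls in Δ133p53α1 and Δ133p53α8 cells were lost without control replicate 2 or 3, Δ133p53α1 replicate 2, 3 or 4 and Δ133p53α8 replicate 3 or 4, each for its own line, and that in Δ133p53β5 cells without its replicate 3 (adjusted p of up to 0.113). TBC1D24 in Δ133p53α2 cells (-0.94, adjusted p = 0.026, kept in 19 of 23 fits without 1 library) and TBC1D8 in Δ133p53β5 cells (-1.31, adjusted p = 0.0205, kept in 20) were the other TBC genes called, both lower. Among the 16 tested genes with a DENN domain, which activate Rab proteins, DENND3, the exchange factor of RAB12, was lower in Δ133p53α1 (-0.76), Δ133p53α2 (-0.68), Δ133p53β5 (-1.09) and Δ133p53β10 (-1.03) cells, with adjusted p from 0.0007 to 0.0267. The call in Δ133p53α1 cells was lost without its replicate 2 or 3 or control replicate 3, and that in Δ133p53α2 cells without its replicate 2 or 4 or control replicate 2 or 3, with adjusted p of up to 0.0982. DENND3 was also called lower in Δ133p53β than in Δ133p53α cells (-0.45, adjusted p = 0.0349), in 11 of 23 fits without 1 library. The other DENN genes called were DENND2B in Δ133p53β5 (-0.64, adjusted p = 0.0472) and DENND6B in Δ133p53β10 cells (-2.97, adjusted p = 0.0383), and MADD between the isoforms (-0.44, adjusted p = 0.0464), all lower. They held in 9, 18 and 7 of 23 such fits.

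Of 7 genes for Rab lipidation and delivery, GDI2, which extracts Rab proteins from membranes, was higher in Δ133p53β5 (log2 fold change 0.68, SE 0.15, adjusted p = 0.00739) and Δ133p53β10 cells (0.60, SE 0.14, adjusted p = 0.0101) and in the β against the α lines (0.50, SE 0.10, adjusted p = 0.0026). It had 231 to 308 CPM in control, 228 to 356 CPM in the Δ133p53α and 350 to 475 CPM in the Δ133p53β libraries. The isoforms overlapped in 1 library of each. The call in Δ133p53β5 cells was lost without its replicate 3 (adjusted p = 0.0598) and that in Δ133p53β10 cells without its replicate 4 (adjusted p = 0.0537). Of the 8 exocyst genes, whose complex tethers carriers to the plasma membrane, EXOC3 in Δ133p53α8 cells (-0.93, adjusted p = 0.0366) was the one call, kept in 17 of 23 fits without 1 library. Of 12 exchange factors and effectors of RAB5, RABGEF1 in Δ133p53β10 cells (1.23, adjusted p = 0.048) was the one call, and it held in 5 of 23 fits without 1 library. This call was lost with the library set as a term and held under 3 of 11 alternative settings. Of 6 genes for surface proteins 4 were tested. ITGA5, the α5 integrin subunit, was lower in Δ133p53β5 cells (-1.01, adjusted p = 0.0234, called in 20 of 23 such fits), and MET, EGFR and TFRC were not called.

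**Figure D5:**
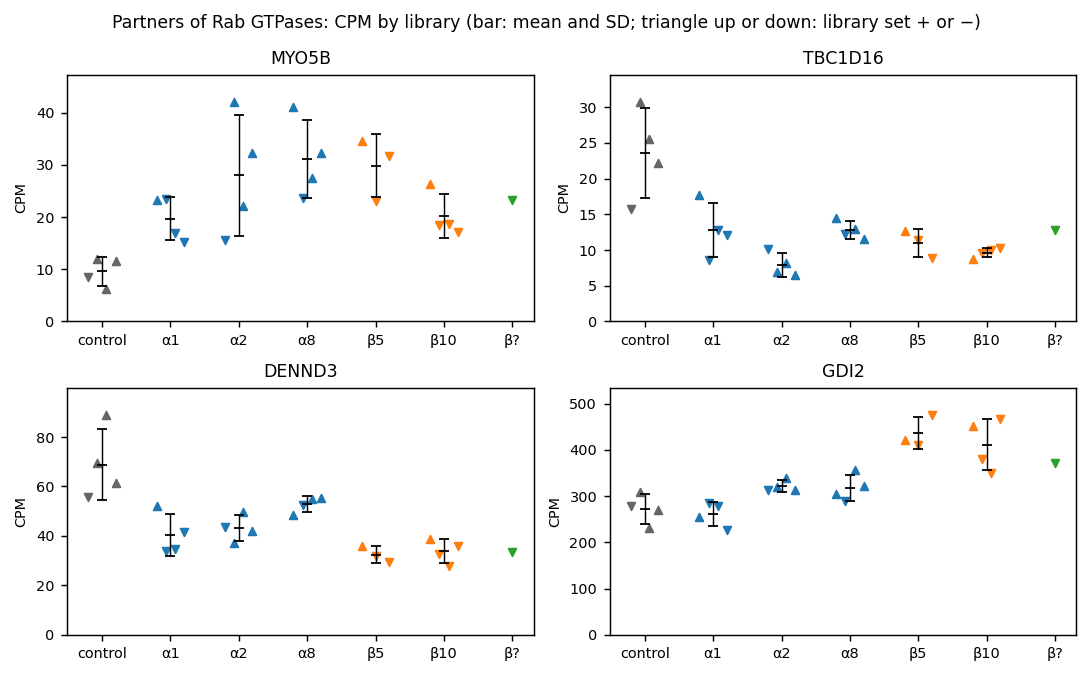
CPM by library for 4 partners of Rab GTPases, with the mean and SD of each group of 3 or 4 libraries. Upward and downward triangles are libraries of the long-gene and the short-gene set, and β? is the library whose clone is unclear. MYO5B lies above the control in all 19 isoform libraries, and GDI2 is highest in the Δ133p53β lines.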

How the data were processed

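RNA of 24 libraries of H1299 cells was analysed, and the gene set and the lists of partners were chosen with earlier results of these data known. The authors enriched poly(A) RNA, made strand-specific dUTP libraries, used Cutadapt for trimming, HISAT2 for alignment to GRCh38 and featureCounts for counting by gene. The values deposited by the authors are raw, unnormalized read counts for each gene in each library. The strand setting and the treatment of multimapping reads are not given in the sources used here. The submitters' processing notes name limma, and the paper's methods DESeq2.

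The table names 60563 genes, and 1 unnamed row with 0 reads was left out. Counts were tested in R 4.3.3 with edgeR 4.0.16 (TMM, filterByExpr by group, 1 quasi-likelihood model over 6 groups, 17 residual degrees of freedom) on 23 libraries. The library whose clone is unclear was left out of the fit. CPM used TMM library sizes, and RPKM the summed exon length of GENCODE 44. Mean differences in log2 CPM used a prior count of 2. Standard errors were the log2 fold change over the square root of F. Genes were named in the text where they were called in at least 1 comparison or belonged to a fixed list of RAB4, RAB5, RAB7A, RAB11, RAB35 and RAB11FIP genes. A count of 0 allows up to 3 counts in a library. Reads had no molecular identifiers, so intervals cover counting error only. Over 33 within-line pairs of libraries, chi-square divided by its degrees of freedom was 11.4 or more, so no library repeated another. The level of the introduced gene is not reported here. The scripts were tested on simulated data. Alternatives were DESeq2 1.42.0, limma 3.58.1 with voom, RLE size factors, other filters, the replicate number or the library set as a term, other places for the unclear library, fits of only the groups compared, leaving out each library and, chosen after seeing the data, a fit without the 3 libraries of highest total.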

Additional observations from a re-analysis of the deposited data

Results flagged for a closer look

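The effects against control differed between the Δ133p53β and the Δ133p53α lines, by the fitted contrast of their means, for 5 genes. The p-values of this contrast measure the spread between libraries and not that between clones. The differences in log2 fold change were -0.93 for RAB11FIP3, -0.71 for RAB15, -0.98 for RAB6B, 0.52 for RAB2A and 3.49 for RAB38. The fitted value of RAB38 rests on 10 reads in all 12 Δ133p53α libraries and depends on the prior count.

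Of 122 groups of 4 libraries examined for the genes named, 10 had a library far from the other 3. Chance alone flags about 1 in 20 groups. RAB39B had 12.3 CPM in control replicate 3, against 1.69 to 2.47 CPM in the other control libraries. RAB11B had 120 CPM in control replicate 1 (others 75.6 to 81.2 CPM) and 156 CPM in Δ133p53α2 replicate 1 (others 65.2 to 76.7 CPM). RAB5C had 86.8 CPM in Δ133p53α2 replicate 1 (others 28.4 to 37.6 CPM) and 55.0 CPM in Δ133p53α8 replicate 2 (others 29.5 to 32.5 CPM). These 4 libraries of RAB11B and RAB5C were in the short-gene set, and the library set's part was not tested. RAB35 had 112 CPM in Δ133p53α1 replicate 1 (others 154 to 155 CPM) and RAB5B 68.4 CPM in Δ133p53α8 replicate 1 (others 95.6 to 99.8 CPM). RAB11FIP3 had 43.4 CPM in Δ133p53α2 replicate 2 (others 34.4 to 35.6 CPM), RAB4A 34.1 CPM in Δ133p53α8 replicate 2 (others 28.1 to 28.8 CPM) and RAB11A 136 CPM in Δ133p53α2 replicate 4 (others 104 to 106 CPM).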

How the results depend on the processing

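Each of the 31 calls of a gene in a comparison kept its direction under every alternative that could be computed. All 31 remained under DESeq2's Wald test, under RLE size factors and with the unclear library in Δ133p53β10, 30 with it in Δ133p53β5, 30 with the library set as a term and 29 under limma voom. Of the 31, 27 remained with the replicate block, 26 with no filter on low counts, 26 without the 3 libraries with the highest totals and 22 without control replicate 3, the fewest of the 23 fits without 1 library. Fits of only the groups compared kept 19 of 30, and a minimum mean of 1 CPM kept 23 of 24. Without the filter RAB14 in Δ133p53α1 (adjusted p = 0.0948), RAB4A in Δ133p53α2 (0.0753), RAB38 (0.0719) and RAB18 (0.0738) in Δ133p53β5 and RAB31 in Δ133p53β10 cells (0.158) were lost. The calls of RAB11FIP3 and RAB15 and those between the isoforms remained under all settings that could give them. Among the genes of the partner and surface protein lists, RABGEF1 in Δ133p53β10 cells remained under 3 of 11 alternatives. MYO5B in Δ133p53α1 and DENND2B in Δ133p53β5 cells remained under 6, and MADD between the isoforms under 7. DENND6B in Δ133p53β10 cells remained under 5 of 10, and the other calls of these lists under 8 to 11. Numbers of genes called in Δ133p53α1, Δ133p53α8 and Δ133p53β5 cells and between the isoforms rose from 3, 3, 8 and 5 to 6, 6, 13 and 9 under DESeq2, while the shares of all genes called rose from 4.88%, 4.48%, 7.99% and 4.73% to 9.72%, 7.13%, 11.6% and 7.42%. With the library set as a term, they rose to 5, 9, 16 and 9, and from 9 to 14 in Δ133p53β10 cells, with 6.49%, 10.4%, 17.5%, 11.5% and 13.7% of all genes. In fits of only the groups compared, 1 gene was called in Δ133p53α2 cells (3 before) and 2 in Δ133p53β10 cells. The shares of all genes there were 2.02% and 2.97%. Without the 3 libraries with the highest totals, 5 were called in Δ133p53α1 and 5 in Δ133p53β10 cells, with 7.36% and 3.64% of all genes. The causes were not tested. Leaving out 1 library each gave 2 to 12 genes in Δ133p53α1, 2 to 4 in Δ133p53α2, 3 to 4 in Δ133p53α8, 5 to 10 in Δ133p53β5 and 4 to 10 in Δ133p53β10 cells and 5 to 7 between the isoforms. In the same order, the shares of all genes were 2.4% to 23.4%, 3.49% to 5.64% and 2.73% to 5.81% for the Δ133p53α lines. They were 3.38% to 8.75% and 5.9% to 16.7% for the Δ133p53β lines and 2.7% to 5.39% between the isoforms. The 12 came without Δ133p53α1 replicate 1, its one long-gene library, where 23.4% of all genes were called. Replicate numbers did not pair the libraries: 55 same-numbered pairs had correlations of deviations from -0.88 to 0.89 (median 0.01), and 6 of 23 libraries correlated best with their own number. With the replicate block 2, 3, 3, 7, 7 and 5 genes were called in the 6 comparisons. The shares of all genes were 3.37%, 4.14%, 3.41%, 5.95%, 7.19% and 3.57%. Genes under about 1 CPM, RAB11FIP4 and RAB38 among them, rest on few reads, and RAB38 was below the minimum of 1 CPM in the stricter filter.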

Other observations

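The library whose clone is unclear had 10 RAB38 reads, 18.7 CPM of RAB9A, 0.77 CPM of RAB20, 162 CPM of RAB2A, 1.95 CPM of RAB6B, 23.2 CPM of MYO5B and 372 CPM of GDI2. Of the 10 genes left untested, RAB7B had the most reads over all 24 libraries (65), followed by RAB3C (63), RAB37 (48) and RAB42 (38). RAB33A had 22, RAB1C 18, RAB17 6, RAB25 2 and RAB19 and RAB44 1 read each.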
